A study of Mus musculus with 6 samples.

Results

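The 10 genes described here, Meis2, Pbx3, Pax6, Zic1, Etv1, Sp8, Tshz1, Lhx6, Ebf1 and Foxp1, encode transcription factors of ventral forebrain and olfactory lineages. They were chosen by symbol, with no threshold on their values, and each had 1 row among the 32285 genes counted in every library. They are described in nuclei with at least 1 unique molecular identifier (UMI) of Gad1 or Gad2, the enzymes that make the transmitter GABA. These were 8749 of 33008 nuclei. All nuclei were isolated from frontal lobe tissue. The 6 mice were Tg-SwDI, a line with a transgene for human amyloid precursor protein that bears the Swedish, Dutch and Iowa changes. In 3 mice (SwDI/TWT) the microglial receptor gene Trem2 was wild type, and in 3 (SwDI/TKO) it was knocked out, and all 6 carried the amyloid transgene. The labels used here give no age, no description of the knockout allele and no border for the dissection. Each library is 1 mouse. P-values between genotypes measure the spread between mice, and those between groups of nuclei measure how far the difference within a mouse varies over mice.

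In the embryo the ventral forebrain forms swellings, the lateral, medial and caudal ganglionic eminences. The lateral eminence gives rise to striatal projection neurons and, with the later subventricular zone, to granule and periglomerular interneurons of the olfactory bulb. The medial eminence gives rise to cortical interneurons with somatostatin (Sst) or parvalbumin (Pvalb), and the caudal eminence to interneurons with vasoactive intestinal peptide (Vip) and many with Lamp5. Combinations of homeodomain, zinc finger, ETS, forkhead and helix-loop-helix factors set these lineages apart, and many of them remain on in the adult neurons. Meis2 and Pbx3 are homeodomain cofactors of the TALE class, and Meis2 acts with Pax6 in olfactory bulb neurogenesis.

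Promoter sequence is shown for 3 members whose highest types differed in the data below. Pax6 was highest in periglomerular neurons and next in an unnamed cluster led by Slc1a3. Sp8 was highest in that cluster and next in the olfactory types. Lhx6 was highest in Sst and Pvalb interneurons. The RefSeq table (GRCm38.p6) had entries for 8 of the 10 members. It held 2 starts for Pax6, 3 for Sp8 and 3 for Lhx6. The 250 bases before the outermost start are printed 5′ to 3′ on the gene's strand, and the matches given for these members cover that start only.
Pax6 (chr2:105668646-105668895, plus strand): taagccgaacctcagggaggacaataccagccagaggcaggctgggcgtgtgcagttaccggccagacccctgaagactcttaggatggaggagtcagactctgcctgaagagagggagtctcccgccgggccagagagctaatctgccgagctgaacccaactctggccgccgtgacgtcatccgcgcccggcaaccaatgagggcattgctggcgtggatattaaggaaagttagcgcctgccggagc
Sp8 (chr12:118846079-118846328, plus strand): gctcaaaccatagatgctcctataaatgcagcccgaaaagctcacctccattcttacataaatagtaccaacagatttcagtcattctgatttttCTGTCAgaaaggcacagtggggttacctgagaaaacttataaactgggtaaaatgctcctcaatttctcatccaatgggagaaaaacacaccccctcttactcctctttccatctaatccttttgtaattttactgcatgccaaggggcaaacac
Lhx6 (chr2:36105409-36105658, minus strand): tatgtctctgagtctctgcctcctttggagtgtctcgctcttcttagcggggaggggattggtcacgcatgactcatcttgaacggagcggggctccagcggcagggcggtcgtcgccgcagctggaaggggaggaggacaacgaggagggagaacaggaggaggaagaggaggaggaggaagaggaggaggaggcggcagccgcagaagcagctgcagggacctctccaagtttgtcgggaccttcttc
Capitals mark a match, on either strand, to TGACAG, the core bound by Meis proteins. Sp8 had 1 match, and Pax6 and Lhx6 had 0. That core was present in 15.9% of the 32851 promoters in the table. TAATTA, a homeodomain core, was searched on both strands as well; it was present in 4.84% of all promoters and in none of these 3. The motifs share no overlap, and a match is a string of letters, not a binding site.

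Knockout replicate 1 stood apart in depth and software. It was processed with Cell Ranger 7.0.0, the other 5 with 6.1.2. It held 51317961 UMIs, against 11493087 to 17835287 UMIs in the other 5 libraries. Its Gad-positive nuclei had a median of 6592 UMIs, against 1659 to 3061.5 elsewhere. Trem2, the targeted gene, measured 1608, 1393 and 816 CPM (its UMIs per 1000000) in the microglia of the wild-type libraries and 230, 668 and 428 in those of the knockout libraries, on 90 to 221 UMIs each. All knockout values lay below all wild-type values but none was 0, and since the allele is not described, UMIs from outside a deleted part cannot be told apart from intact transcripts. Between 5 and 14 cell barcodes were shared by a pair of libraries. Results that rest on knockout replicate 1 are given with and without it.

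Gad-positive nuclei numbered 1248 to 1639 per library, and 7564 of the 8749 lay in GABAergic clusters. Clustering without the 10 members gave 23 clusters, which were named from marker genes as direct-pathway-like, indirect-pathway-like and eccentric striatal neurons, as Sst-like, Pvalb-like, Vip-like and Lamp5-like interneurons, and as olfactory-bulb-like granule and periglomerular neurons (the suffix is dropped below). Clusters without enough markers are called by their leading gene: the Nfib, Slc1a3, Rmst, Otof, Isl1 and Egr4 clusters. The Slc1a3 cluster, a gene better known from astrocytes, also had Calb2 among its leading genes. A granule cluster of 136 nuclei was led by ribosomal protein genes, and direct and indirect neurons of knockout replicates 1 and 3 lay mostly in clusters of their own.

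The libraries differed in which GABAergic types they held. Granule and periglomerular nuclei made up 53.0% of the nuclei in GABAergic clusters in wild-type replicate 1 and 43.8% in knockout replicate 2. In the other 4 libraries they made up 0%, 3.15%, 0.53% and 1.29% (wild-type replicates 2 and 3, knockout replicates 1 and 3). Striatal types made up 21.6%, 59.0% and 41.5% in the wild-type mice, against 24.3%, 31.8% and 65.7% with the knockout. Interneurons made up 10.8%, 24.0% and 24.3% against 35.2%, 13.6% and 10.9%. Each genotype thus had 1 library rich in olfactory neurons, and the shares overlapped between genotypes. The knockout mean differed from the wild-type mean by -3.51 percentage points for olfactory types (exact permutation test, two-sided, p = 0.7), by -0.13 for striatal types (exact p = 1) and by 0.19 for interneurons (exact p = 0.9); 3 against 3 cannot go below 0.1.

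**Figure D1:**
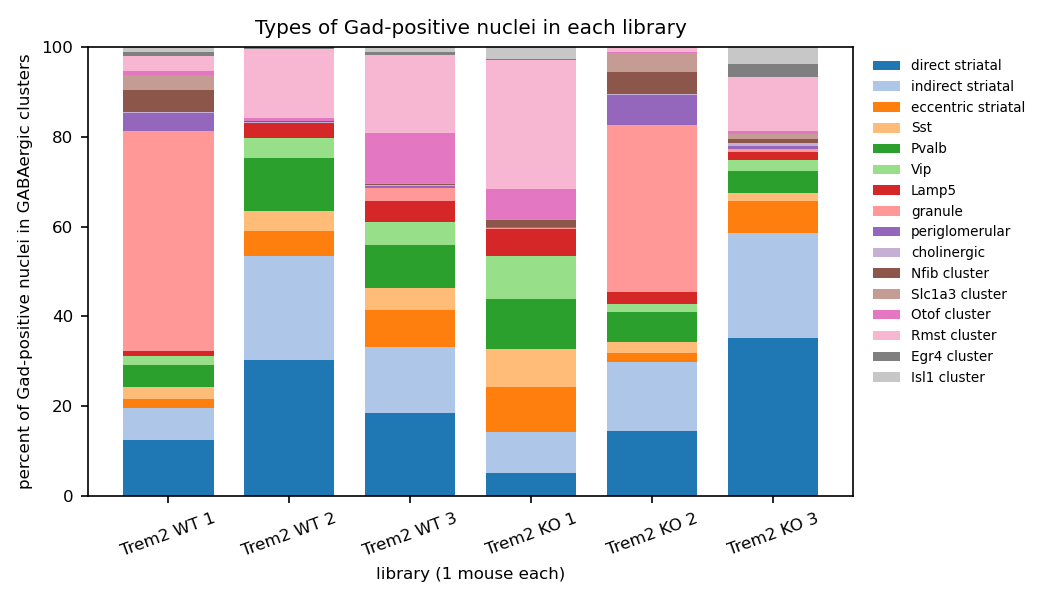
Share of nuclei in GABAergic clusters (percent, vertical axis) by type group in each of the 6 libraries. Olfactory types take 53.0% and 43.8% in wild-type replicate 1 and knockout replicate 2 and at most 3.15% in the other 4 libraries.

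Meis2 (ENSMUSG00000027210; mm10 chromosome 2, 115863064 to 116065839, minus strand) was present at high levels in olfactory and striatal neurons and near the background in cortical interneurons. Levels are given in CPM, the UMIs of a gene per 1000000 UMIs of the same nuclei, as mean ± SD over libraries with at least 20 nuclei of the type. Granule neurons had 3846, 3476 and 4172 CPM in wild-type replicates 1 and 3 and knockout replicate 2. Periglomerular neurons had 2464 and 2630.1 CPM in wild-type replicate 1 and knockout replicate 2. The Nfib cluster, found mainly in the same 2 libraries, had the highest mean of any type, 5319.6 ± 904 (n = 2). Its range did not overlap that of granule neurons, which in turn did not overlap that of periglomerular neurons.

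Among striatal neurons, eccentric neurons had 2046, 2182 and 2063 CPM of Meis2 in the wild-type mice, against 2388, 2659 and 1979 with the knockout. Indirect-pathway neurons had 1212, 1268 and 1423 against 1811, 1409 and 1516. Direct-pathway neurons had 1241, 1099 and 1219 against 1565, 1343 and 1064. All 6 eccentric values lay above all indirect and direct values, while the ranges of indirect and direct neurons overlapped. The mean in Sst, Pvalb and Vip interneurons lay between 39.7 and 44.8 CPM. Knockout replicate 2 had 153 CPM in Lamp5 interneurons, while the remaining 4 libraries with enough nuclei had 0 to 21.9 CPM. All 4 means lay below the 248 ± 82.4 of excitatory neurons (n = 6). After thinning each nucleus to 1000 UMIs, a Meis2 UMI was found in 95.3% of granule, 86.5% of eccentric, 74.1% of indirect and 64.5% of direct nuclei (97.3%, 98.6%, 94.8% and 89.3% unthinned). It was found in 1.58% to 2.47% of the nuclei of the 4 interneuron types (median depth 3228 to 4642.5 UMIs), beside 8.0% of oligodendrocytes (median depth 916 UMIs), and these interneuron shares are read as background. Thinning left out 291 of 1188 granule nuclei and 2763 of 4764 oligodendrocytes, and at most 10 of any striatal or interneuron type named here.

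Pbx3 (ENSMUSG00000038718; chromosome 2, 34171457 to 34373142, minus strand) followed a similar order. Granule neurons had 1537, 1352 and 1301 CPM in wild-type replicates 1 and 3 and knockout replicate 2, and the Nfib cluster 1619 ± 159 (n = 2). Eccentric neurons had 993, 835 and 916 CPM in the wild-type mice, against 1347, 654 and 720.4 with the knockout. Direct-pathway neurons had 416, 294 and 369 against 451, 288 and 328, and indirect-pathway neurons 325, 235 and 238 against 245, 241 and 174. Eccentric neurons again lay above both pathways in every library, and direct and indirect ranges overlapped. Among interneurons, Vip neurons had 120.1 ± 56.5 CPM (n = 6) and Lamp5 neurons 88.4 ± 43.7 (n = 5), against 23.3 ± 8.12 in Pvalb and 9.34 in Sst neurons. After thinning, a Pbx3 UMI was found in 8.54% of Vip nuclei and 0.965% of Sst nuclei (21.1% and 4.17% unthinned; median depths 3688.5 and 4642.5 UMIs), beside 2.03% of excitatory nuclei, 6.95% of oligodendrocytes and 15.3% of microglia (median depths 3320, 916 and 766 UMIs). The Vip share lies within that span, so the thinned shares alone do not set Vip nuclei apart from all of these types. Unthinned, it was 21.1%, against 5.69% of excitatory nuclei. Thinning left out 1041 of 1421 microglia. Periglomerular neurons had only 287 ± 52.2 CPM (n = 2). The ranges of granule and periglomerular neurons did not overlap.

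**Figure D2:**
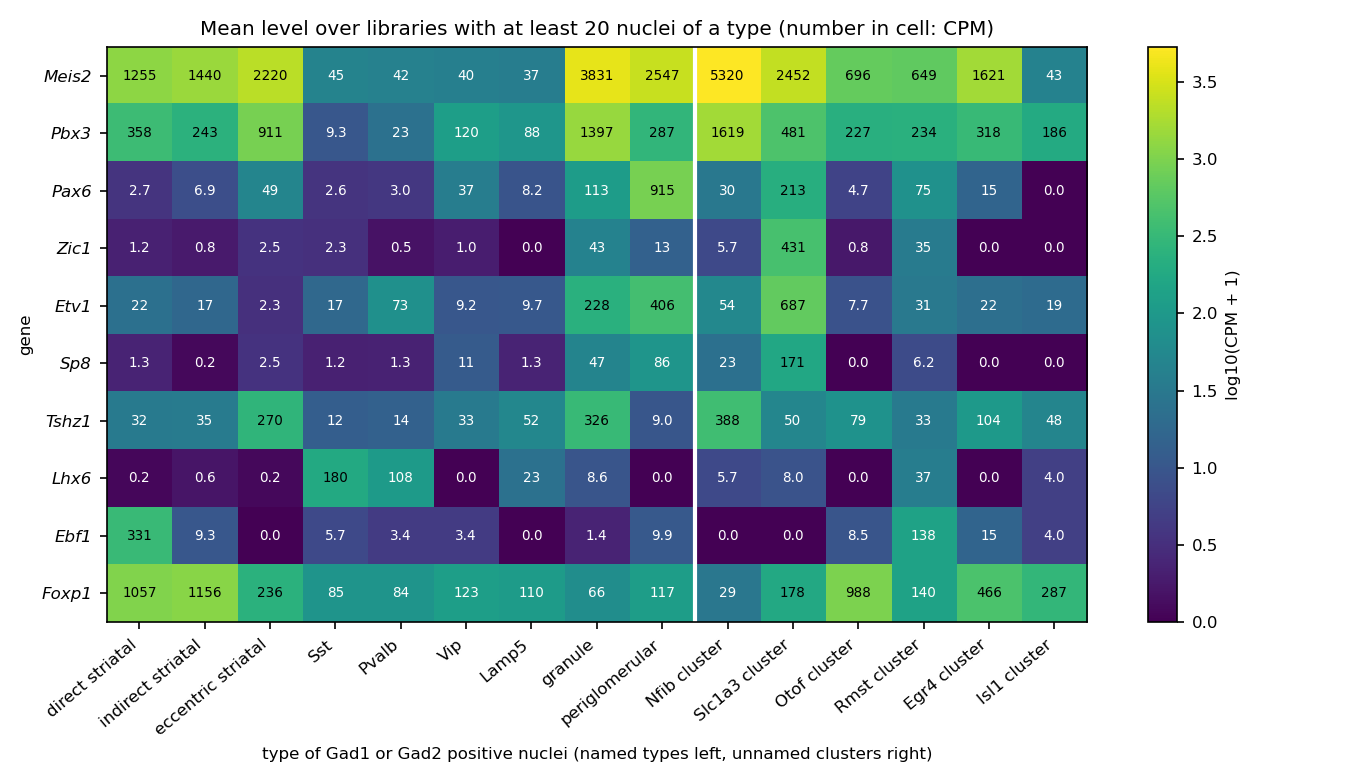
Mean level of each of the 10 members (rows) in 15 types of Gad-positive nuclei (columns), with the CPM printed in each cell and log10(CPM + 1) as colour. Meis2 and Pbx3 are high in the olfactory, Nfib and striatal columns, Pax6, Etv1 and Sp8 in olfactory columns and the Slc1a3 cluster, Lhx6 in the Sst and Pvalb columns, and Ebf1 in the direct-pathway and Rmst columns.

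Pax6 (ENSMUSG00000027168; chromosome 2, 105668900 to 105697364, plus strand), a paired-box factor needed for dopaminergic periglomerular neurons, was highest in periglomerular neurons. Their 2 libraries with enough nuclei had 818 and 1013 CPM, on 91 and 154 UMIs. Granule neurons had 104, 48.3 and 186 CPM and the Slc1a3 cluster 213 ± 74.4 (n = 2), all below the lower periglomerular library. A Pax6 UMI was found in 55.6% of thinned periglomerular nuclei, in 9.59% of granule nuclei and in 0.192% of excitatory nuclei (69.9%, 12.5% and 0.547% unthinned; median depths 1735, 1305 and 3320 UMIs). Direct, indirect, Sst and Pvalb nuclei were all under 0.5% after thinning. The Rmst cluster had 75.4 ± 25.3 CPM (n = 5) on 274 UMIs, more UMIs than the 257 of periglomerular neurons. A Pax6 UMI was found in 5.72% of its thinned nuclei (14.0% unthinned; median depth 3825 UMIs). Eccentric neurons had between 0 and 93.8 CPM over 6 libraries, and Vip neurons between 7.0 and 73.3, on 32 UMIs in all. Astrocytes, which are known to express Pax6, had 232 ± 94.6 CPM (n = 6), above granule neurons in mean.

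Etv1 (ENSMUSG00000004151; chromosome 12, 38779380 to 38870484, plus strand), an ETS factor of olfactory interneurons and deep-layer cortex, was highest in the Slc1a3 cluster at 687 ± 94.9 CPM (n = 2). Periglomerular neurons had 378 and 434 CPM, and granule neurons 268, 193 and 224. These 3 ranges did not overlap, and no other type reached the granule range. Pvalb interneurons came next, with 33.1, 97.6 and 50.5 CPM in the wild-type mice, against 40.7, 143 and 75.6 with the knockout. Within Pvalb neurons a cluster of 103 nuclei, led by Igfbp4 and Pthlh, had 338 ± 83.0 CPM (n = 2), against 37.9 ± 28.9 (n = 6) in the main Pvalb cluster of 459 nuclei. Outside GABAergic clusters, oligodendrocyte precursors had 212 ± 32.2 CPM and oligodendrocytes 127 ± 33.3 (n = 6 each).

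Sp8 (ENSMUSG00000048562; chromosome 12, 118846329 to 118852576, plus strand), a zinc finger factor required for olfactory interneurons, had 201 UMIs in all Gad-positive nuclei. Of these 84 came from wild-type replicate 1 and 71 from knockout replicate 2. The Slc1a3 cluster had 171 ± 83.4 CPM (n = 2), periglomerular neurons 98.9 and 72.3, and granule neurons 52.5, 24.1 and 65.5. A Sp8 UMI was found in 20.6% of thinned nuclei of the Slc1a3 cluster and 6.13% of granule nuclei, beside 0.0384% of excitatory nuclei (18.3%, 7.15% and 0.0754% unthinned; median depths 1079.5, 1305 and 3320 UMIs). Thinning left out 52 of the 120 nuclei of the Slc1a3 cluster, and its thinned share ranged from 8.82% to 38.5% between 2 libraries. Of the 120 nuclei, 48 came from wild-type replicate 1 and 53 from knockout replicate 2. Vip interneurons had 10.7 ± 10.8 CPM on 17 UMIs, with 0 UMIs in 2 libraries.

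Zic1 (ENSMUSG00000032368; chromosome 9, 91358058 to 91365810, minus strand), a zinc finger factor of midline and olfactory progenitors, was highest in the Slc1a3 cluster. It had 301 CPM there in wild-type replicate 1 and 561 in knockout replicate 2, against 43.2 ± 9.24 in granule neurons (n = 3). The Rmst cluster had 119 CPM in wild-type replicate 1 and 4.38 to 37.1 in the other 4 libraries with enough nuclei. The 22 cholinergic nuclei, too few per library for a mean, held 25 Zic1 UMIs (189 CPM pooled). Fibroblasts, outside the GABAergic clusters, had 462 ± 122 CPM (n = 5). The Zic1 gene overlaps Zic4 on the opposite strand, so reads of the pair may be hard to tell apart where counting ignores strand.

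Tshz1 (ENSMUSG00000046982; chromosome 18, 84011627 to 84087706, minus strand), a zinc finger factor of olfactory granule neurons and of a subset of striatal cells, was highest in the Nfib cluster, granule neurons and eccentric neurons, in that order, and each range overlapped the next. The Nfib cluster had 388 ± 16.4 CPM (n = 2). Granule neurons had 267, 290 and 420.5 CPM in wild-type replicates 1 and 3 and knockout replicate 2. Eccentric neurons had 166, 253 and 232 in the wild-type mice, against 413, 232 and 323 with the knockout, a range that overlapped that of granule neurons. Direct and indirect neurons lay at 31.8 ± 14.6 and 34.7 ± 11 (n = 6 each), with every library below the lowest eccentric value. Periglomerular neurons, at 8.99 CPM, lay far below granule neurons. Lamp5 interneurons had 52.1 ± 17.7 (n = 5), Vip 32.6 ± 11, Pvalb 13.6 ± 6.70 and Sst 11.8 ± 2.94 (n = 6 each).

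Lhx6 (ENSMUSG00000026890; chromosome 2, 36081953 to 36105408, minus strand), the LIM homeodomain factor of the medial eminence, was highest in Sst neurons. They had 206, 194 and 155 CPM in the wild-type mice, against 89.4, 160 and 274 with the knockout. Pvalb neurons had 132, 84.8 and 71.8 against 65.2, 162 and 132, and the ranges of the 2 types overlapped. In both types the lowest library was knockout replicate 1. A Lhx6 UMI was found in 16.1% of thinned Sst nuclei and 10.0% of thinned Pvalb nuclei (49.0% and 36.3% unthinned; median depths 4642.5 and 4082 UMIs), beside 0.0192% of excitatory nuclei (0.0943% unthinned; 3320 UMIs). Vip neurons held 0 Lhx6 UMIs among 1586151, so the pooled level in Sst neurons was at least 71.3-fold higher, set against a floor of 3 counts over the group. The Rmst cluster had 37.0 ± 22.4 CPM (n = 5) and Lamp5 neurons 23.3 ± 19.7 (n = 5).

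Ebf1 (ENSMUSG00000057098; chromosome 11, 44617317 to 45008091, plus strand), a helix-loop-helix factor of direct-pathway differentiation, marked direct-pathway neurons. They had 290.0, 433 and 307 CPM in the wild-type mice, against 433, 369 and 153 with the knockout. Indirect-pathway neurons had at most 22.9 CPM in any library. Eccentric neurons held 0 Ebf1 UMIs among 1557770, so the pooled direct-pathway level was at least 158-fold higher against the same floor over the group. The Rmst cluster had 138 ± 46.5 CPM (n = 5), its range overlapping that of direct-pathway neurons. Oligodendrocyte precursors, which are not GABAergic neurons, had 281 ± 25.6 CPM (n = 6).

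Foxp1 (ENSMUSG00000030067; chromosome 6, 98925338 to 99522721, minus strand), a forkhead factor of striatal and cortical neurons, was highest in both striatal pathways. Indirect neurons had 929, 855 and 959 CPM in the wild-type mice, against 2194, 1192 and 810.0 with the knockout. Direct neurons had 759, 765 and 928 against 2204, 1066 and 623. In both types knockout replicate 1 stood above the other 5 libraries, and the remaining knockout values overlapped the wild-type ones. Across Sst, Pvalb and Vip neurons that library was also highest, with 198, 170 and 243 CPM against at most 86.6, 89.1 and 141 elsewhere. The Foxp1 gene holds 583633 intron bases, the most of the 10 members, and the sources used here do not say whether intronic reads were counted with either version; its part in the difference was not tested. Eccentric neurons, at 236 ± 117 CPM (n = 6), and granule neurons, at 66.3 ± 22.3 (n = 3), lay below both pathways in every library with enough nuclei. The Otof cluster had 711 and 1265 CPM.

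**Figure D3:**
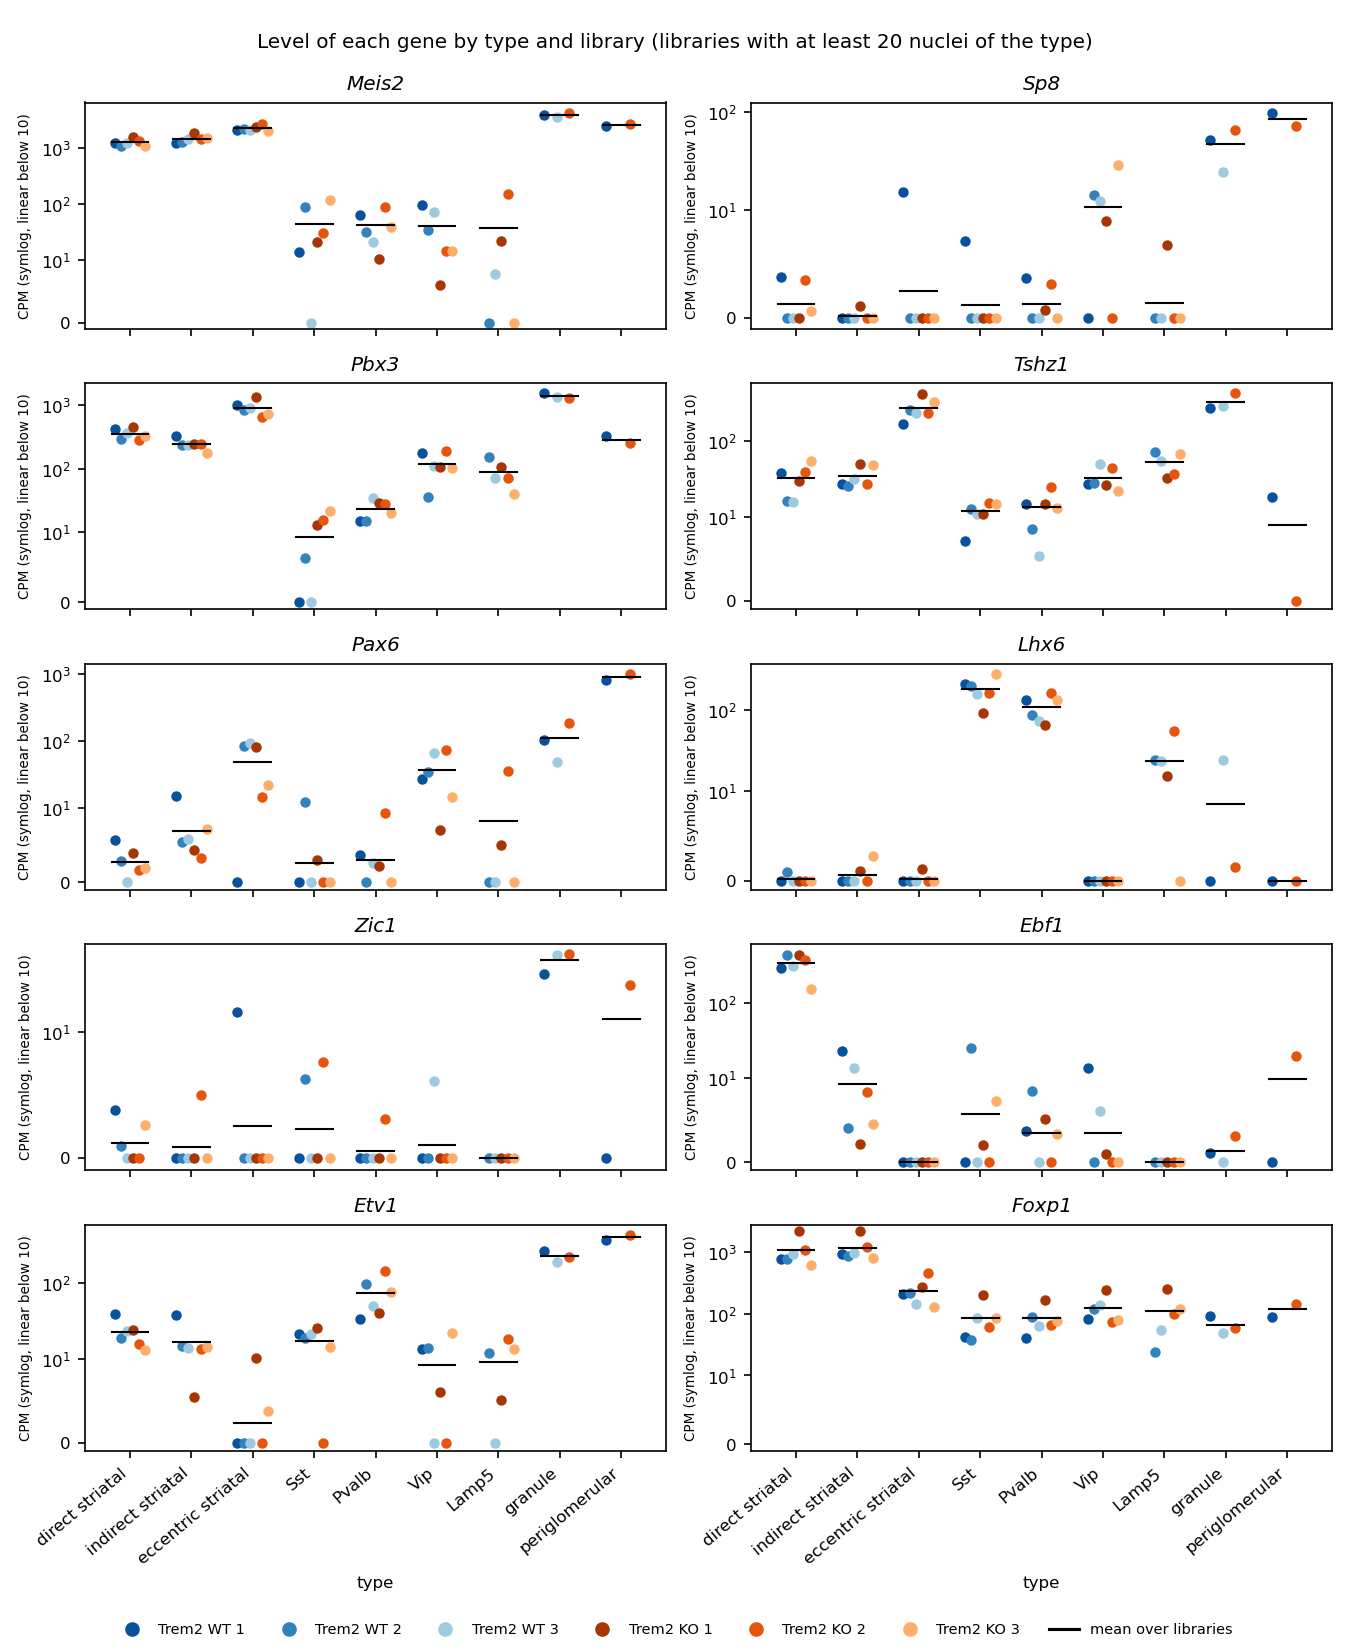
Level of each member (1 panel each; CPM on an axis that is linear near 0 and logarithmic above) by type, with 1 point per library coloured by genotype. The genotypes overlap for Foxp1 in direct and indirect neurons, where the points of knockout replicate 1 at 2204 and 2194 CPM lie above the others.

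Types made from clusters describe levels but do not test them, since the same nuclei were clustered. For tests, nuclei were assigned by gates of other marker genes that include no member: at least 2 UMIs of the gate's genes and more than 2 times those of the competing gates. The striatal gate used markers that included Ppp1r1b, Pde10a, Rgs9, Drd1 and Adora2a (3548 nuclei), the medial gate Sst, Pvalb, Nxph1, Kcnc2 and Elfn1 (653), the caudal gate Adarb2, Vip, Cnr1, Npas1 and Ndnf (667) and the olfactory gate Lgr5, Vipr2, Synpr, Tpbg, Th and Trh (258). A pair of gates split Gad-positive nuclei by Drd1, Tac1, Pdyn and Eya1 (direct, 1364 nuclei) against Drd2, Adora2a, Penk and Gpr6 (indirect, 1102). UMI sums per library and gate were compared within mice with edgeR, adjusting over all genes tested. The gates were not pure: 75.6% of striatal, 82.4% of medial, 51.3% of caudal, 96.1% of olfactory, 75.5% of direct and 89.7% of indirect gated nuclei lay in clusters of the matching types.

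Between striatal and interneuron gates, 4 of 8 tested members were called higher in striatal nuclei and 3 lower. The background was 42.6% of 10304 genes called in either direction. Foxp1 was higher by 3.33 on the log2 scale (SE 0.13; edgeR adjusted p = 6.19e-13), at 829 CPM on average in the striatal gate and 95.8 in the interneuron gate. Ebf1 was higher by 2.73 (SE 0.31; edgeR adjusted p = 5.84e-07), Meis2 by 2.2 (SE 0.25; edgeR adjusted p = 6.59e-07) and Pbx3 by 0.91 (SE 0.20; edgeR adjusted p = 0.000970), each in 6 of 6 libraries. Lhx6 fell by 5.05 (SE 0.23; edgeR adjusted p = 2.63e-12), from 79.2 CPM in interneurons to 2.28 in striatal nuclei. Pax6 fell by 1.17 (SE 0.33; edgeR adjusted p = 0.00825), lower in 6 of 6 libraries, and Etv1 fell by 0.68 (SE 0.23; edgeR adjusted p = 0.0212), lower in 5 of 6. Tshz1 had a log2 difference of 0.21 (SE 0.23; edgeR adjusted p = 0.49). Zic1 and Sp8 had too few counts to test. The interneuron gate joins the medial and caudal gates, and 51.3% of caudal-gate nuclei lay in Vip and Lamp5 clusters. Meis2 measured 98.8 to 788 CPM per library in the interneuron gate, against means of 39.7 to 44.8 in Sst, Pvalb and Vip clusters. Tshz1 measured 16.5 to 114 CPM in that gate. The part of nuclei from other clusters in these differences was not tested. The call for Etv1 was lost without knockout replicate 2 (edgeR adjusted p = 0.117) or 3 (edgeR adjusted p = 0.0872), and Tshz1 was called without knockout replicate 2 (log2 0.51; edgeR adjusted p = 0.0415). Without the mouse as a block Pbx3, Pax6 and Etv1 were not called (edgeR adjusted p = 0.256, 0.0844 and 0.227).

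Other factors were counted by list. Of the striatal factors 6 of 6 tested were higher in the striatal gate and called, with a median log2 difference of 3.12 against -0.02 over all genes; Six3 had 4.09 and Rarb 3.95. Of the medial eminence factors 4 of 4 fell, with a median of -4.50 (Sox6 -4.63), and so did the 4 caudal eminence factors that are not gate genes, from Nr2f1 at -1.83 to Prox1 at -5.21. Of the GABA lineage factors 4 of 6 tested were called lower in striatal nuclei, among them Dlx1, Dlx2 and Dlx5, with a median of -1.81 for the list. Among 11 tested paralogs of the members 3 were called higher and 3 lower, and the median was 0.15. Foxp2, a paralog of Foxp1, was higher in the striatal gate by 2.27, and Meis1, a paralog of Meis2, by 1.20.

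Between medial and caudal gates, Lhx6 was higher in medial nuclei by 2.83 (SE 0.19; edgeR adjusted p = 1.11e-12), in 6 of 6 libraries, at 136 CPM on average against 17.2. Of 6 tested members Lhx6 was the 1 called higher, and 4 were called lower, against a background of 15.1% of 5321 genes called. Pbx3 fell by 2.88 (SE 0.19; edgeR adjusted p = 3.48e-13), from 374 CPM in the caudal to 44.1 in the medial gate. Meis2 fell by 2.13 (SE 0.16; edgeR adjusted p = 7.25e-12) and Tshz1 by 1.97 (SE 0.24; edgeR adjusted p = 1.98e-07). Foxp1 fell by 0.43 (SE 0.15; edgeR adjusted p = 0.0460), a call that was lost when any of 5 libraries was left out (edgeR adjusted p = 0.0548 to 0.240) and kept without knockout replicate 3 (0.0257). Without the mouse as a block Meis2 and Tshz1 were not called (edgeR adjusted p = 0.123 and 0.0950). Etv1 had a log2 difference of 0.33 (SE 0.28; edgeR adjusted p = 0.504).

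The caudal gate was the least pure, and the members' levels differed between its parts. Of the caudal gate 161 nuclei lay in the Rmst cluster, 51 in granule and 48 in Nfib clusters. In gated nuclei of the Vip and Lamp5 clusters the pooled Meis2 level was 27.3 CPM, against 1063 in caudal-gate nuclei elsewhere. In gated nuclei of the Sst and Pvalb clusters it was 20.0 CPM, against 867 in medial-gate nuclei elsewhere. Pbx3 was 131 CPM in the Vip and Lamp5 clusters and 12.7 in the Sst and Pvalb clusters, and Tshz1 was 35.8 and 13.7. These pooled values are a description with no test.

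All 4 tested medial factors were called higher in the medial gate, with a median log2 difference of 2.96 against -0.01 over all genes, among them Satb1 at 3.16 and Sox6 at 2.75. Of 5 tested caudal factors Npas1 is itself a gene of the caudal gate, so its fall was set by the gating. The other 4 were called lower, Prox1 at -3.82, Nr2f2 at -2.98, Npas3 at -1.18 and Nr2f1 at -1.17. Foxp2, a striatal factor and a paralog of Foxp1, fell by 3.19. Of 5 tested paralogs 0 were called higher and 2 lower, with a median of -0.55.

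**Figure D4:**
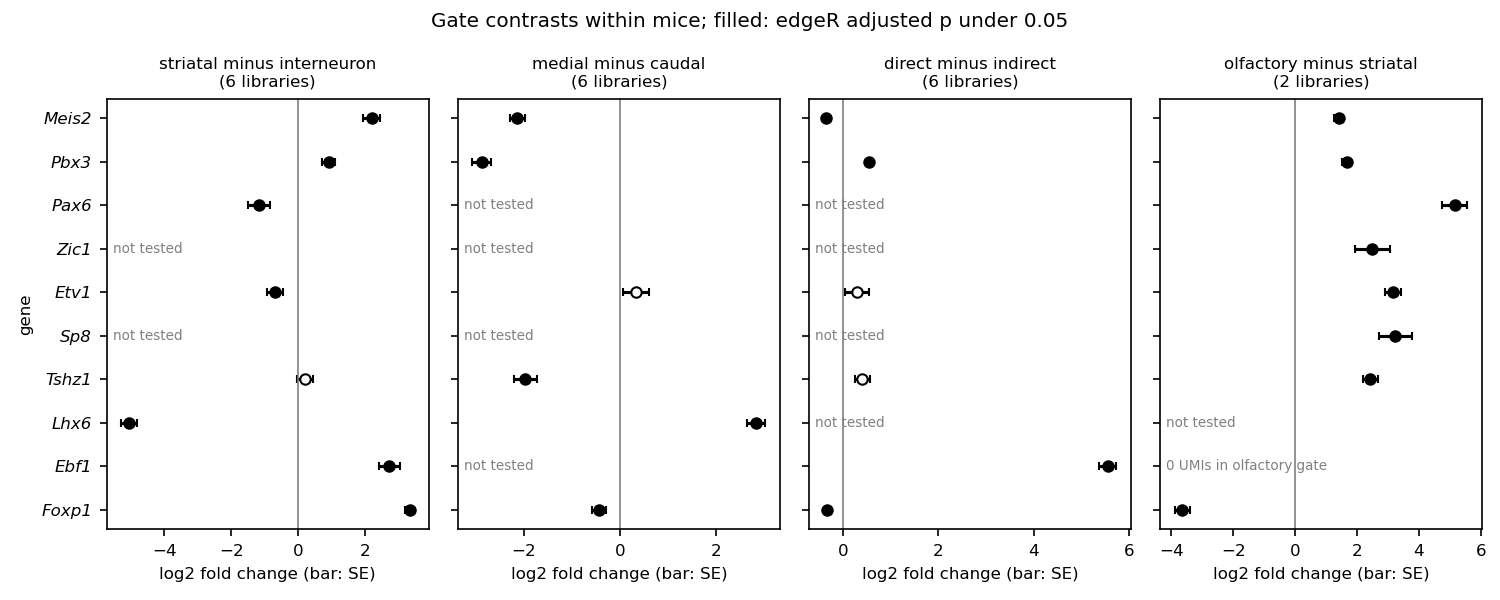
Log2 difference of each tested member (point, with its SE as a bar) in the 4 gate comparisons, filled where the edgeR adjusted p was under 0.05; Ebf1 in the olfactory panel is given in words as it had 0 UMIs. Lhx6 changes sign between the striatal against interneuron panel (-5.05) and the medial against caudal panel (2.83), and Ebf1 has the largest difference between direct and indirect nuclei (5.55).

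Direct and indirect gates differed most in Ebf1 among the members. Ebf1 was higher in direct nuclei by 5.55 (SE 0.18; edgeR adjusted p = 7.51e-39), at 123 to 392 CPM per library against 1.91 to 15.1, without overlap and in 6 of 6 libraries. Pbx3 was higher by 0.55 (SE 0.07; edgeR adjusted p = 3.27e-08), also in 6 of 6 libraries. Meis2 fell by 0.35 (SE 0.06; edgeR adjusted p = 7.35e-06), lower in 5 of 6 libraries, and Foxp1 fell by 0.34 (SE 0.05; edgeR adjusted p = 1.86e-06), lower in 6 of 6. Tshz1 had a log2 difference of 0.41 (SE 0.16; edgeR adjusted p = 0.162) and Etv1 of 0.29 (SE 0.25; edgeR adjusted p = 0.717). So 4 of 6 tested members were called, 2 in each direction, against a background of 5% of 7899 genes. Of the gated nuclei, 75.5% of direct and 89.7% of indirect lay in matching clusters, and the part of the others was not tested. Means in direct and indirect clusters were 358 and 243 CPM for Pbx3, 1255 and 1440 for Meis2 and 1057 and 1156 for Foxp1. These went the same way as between gates, with overlapping ranges. Without the mouse as a block only Ebf1 was called among them (edgeR adjusted p = 1.24e-05), and Pbx3, Meis2 and Foxp1 each had an edgeR adjusted p of 0.9995.

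Factors from the lists also differed between the pathways. Isl1, a homeodomain factor of direct-pathway neurons, was higher in direct nuclei by 5.28 (SE 0.35; edgeR adjusted p = 8.52e-21), and Foxp2 by 2.01 (SE 0.10; edgeR adjusted p = 4.36e-27). Sp9, a paralog of Sp8 and a factor of indirect-pathway neurons, fell by 3.38 (SE 0.27; edgeR adjusted p = 8.61e-17), and Six3 fell by 0.60 (SE 0.14; edgeR adjusted p = 0.00374). Meis1 fell by 0.70 (SE 0.16; edgeR adjusted p = 0.00142), the same direction as its paralog Meis2, and Tshz2 rose by 1.22 (SE 0.19; edgeR adjusted p = 1.97e-06). Of 6 tested striatal factors 2 were called higher and 1 lower, with a median of -0.04. Of 8 tested paralogs 2 were called higher and 2 lower, with a median of 0.11.

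Olfactory and striatal gates could be compared in wild-type replicate 1 and knockout replicate 2 only, which leaves 1 residual degree of freedom among samples; the spread is then pooled across genes. In those libraries 7 of 9 tested members were called higher in the olfactory gate and 2 lower, against a background of 19.9% of 8496 genes. Pax6 was higher by 5.16 (SE 0.41; edgeR adjusted p = 6.68e-11), at 207 and 486 CPM in olfactory nuclei in the 2 libraries, against 2.17 and 15.6 in striatal nuclei. Sp8 was higher by 3.24 (SE 0.54; edgeR adjusted p = 3.24e-05), Etv1 by 3.17 (SE 0.26; edgeR adjusted p = 1.47e-10) and Zic1 by 2.5 (SE 0.56; edgeR adjusted p = 0.00120). Tshz1 was higher by 2.43 (SE 0.24; edgeR adjusted p = 6.49e-09), Pbx3 by 1.67 (SE 0.15; edgeR adjusted p = 5.57e-10) and Meis2 by 1.41 (SE 0.13; edgeR adjusted p = 1.90e-09), each in 2 of 2 libraries.

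In the other direction, Foxp1 fell by 3.65 (SE 0.24; edgeR adjusted p = 2.23e-12), from 834 CPM in striatal to 73.6 in olfactory nuclei. Ebf1 had 0 UMIs among 377137 in the olfactory gate, at least 19.2-fold lower than the 153 CPM of the striatal gate against a floor of 3 counts over the group (edgeR adjusted p = 4.59e-09, and 0.365 by DESeq2). All 6 tested striatal factors fell, with a median of -6.29 against -0.01 over all genes. All 6 tested GABA lineage factors rose, 5 of them called, with a median of 1.98. Dlx2 rose by 4.29 and Dlx1 by 3.51. Meis1, the paralog of Meis2, rose by 2.56.

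Levels summed over all Gad-positive nuclei differed between libraries along with their mix of types. Meis2 measured 1859.6, 780.0 and 757 CPM in the wild-type mice, against 677, 1760 and 929 with the knockout. Pbx3 measured 668, 207 and 245 against 289, 462 and 230.0, Pax6 74.7, 16.9 and 31.5 against 18.2, 98.2 and 17.0, and Etv1 126, 40 and 28.9 against 27.3, 114 and 28.9. The libraries rich in olfactory nuclei, wild-type replicate 1 and knockout replicate 2, were the highest for each of these genes. Olfactory types gave 63.3% and 55.1% of the Meis2 UMIs there, 67.2% and 59.6% of the Pbx3 UMIs, and 76% and 86.8% of the Pax6 UMIs, against at most 7.78% in the other 4 libraries. In such a sum, fewer nuclei of a type and less RNA per nucleus cannot be told apart.

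With the mix of the 6 types found in every library held fixed, the highest library exceeded the lowest by 1.32 times for Meis2, against 2.75 times in the plain sum. The same ratio went from 3.22 to 1.51 for Pbx3, from 4.62 to 1.71 for Etv1 and from 4.17 to 1.68 for Tshz1. The fixed mix holds direct, indirect, eccentric, Sst, Pvalb and Vip nuclei and no olfactory ones. The ratio of Ebf1 was 2.92 in the plain sum and 2.78 with the fixed mix. The ratios of Lhx6 and Foxp1 were larger with the fixed mix, 2.47 and 3.03, than in the plain sum, 1.39 and 1.93. For Foxp1 the fixed-mix ratio was 1.59 without knockout replicate 1.

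**Figure D5:**
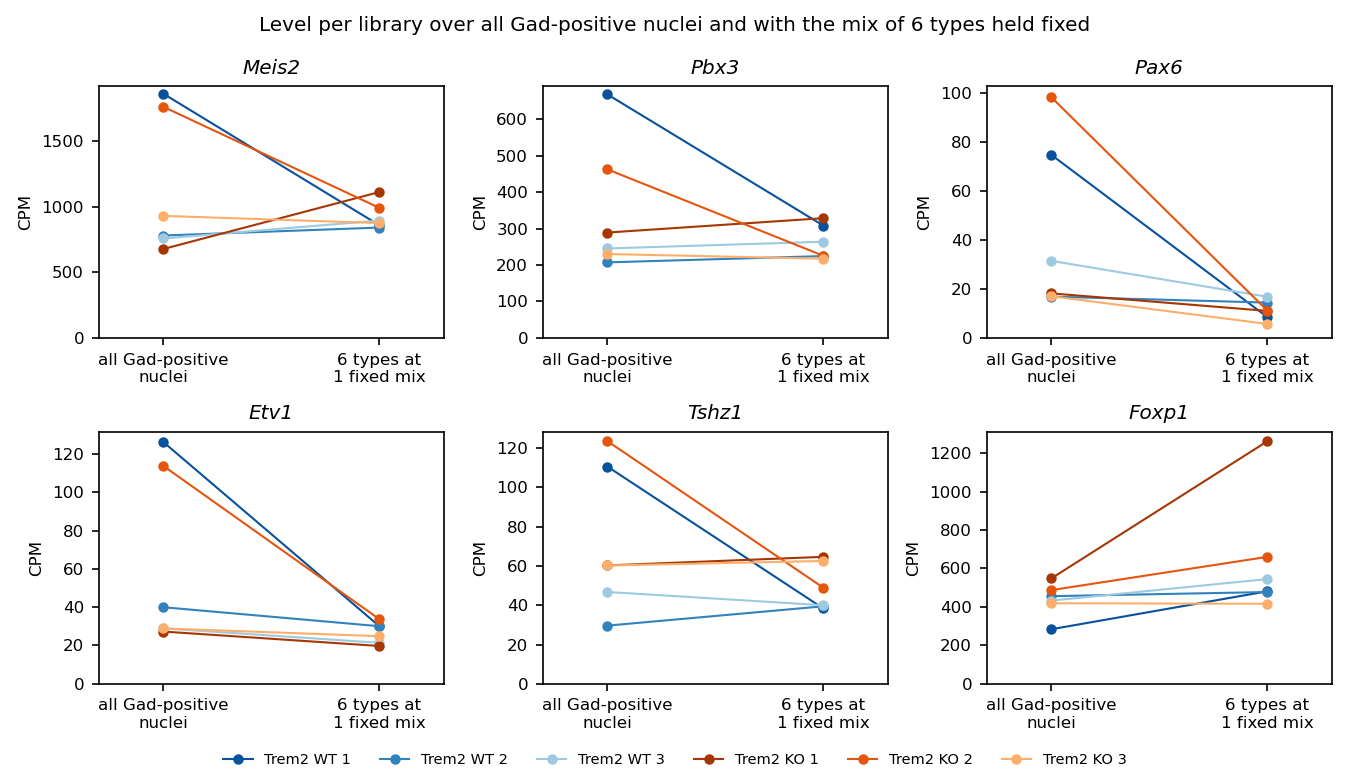
Level of 6 members in each library (CPM) over all Gad-positive nuclei as deposited and with the mix of 6 types held fixed. Meis2 spans 677 to 1859.6 CPM in the plain sum, and its ratio of highest to lowest is 1.32 with the fixed mix.

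Between genotypes, no member was called in any fit. Over all Gad-positive nuclei edgeR called 0 of 13196 genes, a background of 0%, with 495 at an unadjusted p under 0.05; DESeq2 called 0, with 612. Ebf1 had the lowest log2 difference of the 9 members tested, -0.67 (SE 0.37; edgeR adjusted p = 0.75), at 101 ± 49.9 CPM in the wild-type mice, against 62.6 ± 7.97 with the knockout (SD, n = 3 each). Tshz1 had the highest, 0.40 (SE 0.52; edgeR adjusted p = 0.851), at 62.3 ± 42.7 against 81.4 ± 36.5. Meis2 had -0.02 (SE 0.49; edgeR adjusted p = 0.991), a sign that turned in 5 of 12 alternative fits, so no direction is read from it. Foxp1 had 0.38 (SE 0.37; edgeR adjusted p = 0.804). Leaving out 1 library at a time, the values spanned -0.94 to -0.23 for Ebf1, 0.0611 to 1.07 for Tshz1 and 0.0583 to 0.57 for Foxp1, the lowest Foxp1 value being that without knockout replicate 1.

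In direct-pathway, indirect-pathway, eccentric, Sst, Pvalb and Vip nuclei edgeR called 0% of the 7632, 7859, 3517, 2918, 6194 and 2758 genes tested, and the smallest adjusted p of a member in the 7 fits was 0.570. Tshz1 in direct-pathway nuclei had a log2 difference of 0.83 (SE 0.39; edgeR adjusted p = 0.835), and Etv1 there had -0.67 (SE 0.49; edgeR adjusted p = 0.839). Foxp1 in Sst nuclei had 1.31 (SE 0.60; edgeR adjusted p = 0.570). That value was 0.24 when knockout replicate 1 was left out. Lhx6 in Pvalb nuclei had 0.27 (SE 0.36; edgeR adjusted p = 0.869). Leaving out 1 library at a time, these spanned 0.59 to 1.28 for Tshz1, -1.13 to -0.29 for Etv1, 0.24 to 1.83 for Foxp1 and 0.0378 to 0.53 for Lhx6. A p that misses the threshold in 3 against 3 does not show that the genotypes had the same level.

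The members fell into groups by their levels across the 15 types of Gad-positive nuclei. Pearson's r of log2(CPM + 20) was 0.93 for Etv1 and Sp8, 0.86 for Meis2 and Pbx3, 0.86 for Pax6 and Sp8, 0.83 for Zic1 and Sp8 and 0.81 for Pbx3 and Tshz1. These are descriptions over 15 types that share libraries and depth.

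Among 11197 genes with at least 20 CPM in some type, the gene most like Meis2 was the long noncoding RNA G630016G05Rik (r = 0.94), which lies 1385 bases from Meis2 on the opposite strand (chromosome 2, 116067225 to 116085911). It was also the gene most like Pbx3 (r = 0.88), followed by Meis2. Zadh2, most like Tshz1 (r = 0.86), starts 356 bases from it on the opposite strand. Pax6 was most like Ddo, which encodes D-aspartate oxidase (r = 0.94), and P3h4 (0.92). Zic1 was most like A530001N23Rik (0.96) and its paralog Zic2 (0.95). Slc15a2, a peptide transporter gene, was most like both Etv1 (0.95) and Sp8 (0.96). Lhx6 was most like Tmem132c (0.95) and Nxph2 (0.95), and Foxp1 like Strn (0.96) and Gm38413 (0.94). Ebf1 had the lowest values, 0.74 for Klhl1 and 0.74 for Dlk1. The highest level in any type was 25.7 CPM for A530001N23Rik, 24.6 for P3h4 and 28.6 for Nxph2, near the limit of 20 CPM. Each r was picked as among the highest of 11197 genes over 15 types and was not tested.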

How the data were processed

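Single-nucleus RNA-seq of 6 libraries, 1 per mouse, was used. The authors deposited filtered UMI counts per gene and barcode for each library, which the submitters' processing notes place on mm10 with Cell Ranger and Seurat; per the file headers, Cell Ranger was version 7.0.0 for knockout replicate 1 and 6.1.2 for the other 5. From these counts, nuclei were kept at 200 or more genes and no more than 5% mitochondrial UMIs, and doublets called by Scrublet at a 6% rate were removed. Clustering used scanpy 1.11.5 and Leiden 0.10.2 (2000 variable genes, 30 components, 15 neighbours, resolution 1) without the 10 members. A cluster was named when at least 3 markers, and a majority of a type's list, were raised in it, and either 1 or more of them stood among its top 10 genes or at least 80% of the list was raised. The thresholds were chosen once the clusters had been seen. The Otof and Isl1 clusters had 3 of 6 eccentric striatal markers and the Rmst cluster 3 of 6 of another list, so they stayed unnamed. Doublet removal and filters left 4427 to 7460 nuclei per library.

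UMI sums per library were tested with edgeR 4.0.16 (R 4.3.3; quasi-likelihood test, Benjamini-Hochberg adjustment over all genes tested, threshold 0.05), with the mouse as a block between gates and without a block between genotypes. Shares used an exact permutation test over 20 assignments. Alternatives were DESeq2 1.42.0, RLE normalization, no low-count filter, at least 2 Gad UMIs, 10% mitochondrial UMIs, leaving out each library and dropping the block. Named genes were the 10 members, the tested genes of the lists, and the 2 genes most like each member by Pearson's r. On simulated counts with 200 genes changed 4-fold, edgeR recovered 95.5% of them over all Gad-positive nuclei (13693 genes). Between striatal and interneuron gates it recovered 89.0% (10495 genes). False calls made up 3.54% and 5.82% of the calls. Member differences between genotypes over all Gad-positive nuclei were smaller than 4-fold, at -0.67 to 0.40 on the log2 scale. Recovery of changes that small was not measured. The members and lists were chosen with earlier results of these data known. Results for some genes of the lists and gates are not reported here.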

Additional observations from a re-analysis of the deposited data

Results flagged for a closer look

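Of 33 levels of members tested over 5 or 6 libraries, 4 had a library far from the others by Dixon's test at 95%, where chance gives about 1 in 20. In 3 of these the library was knockout replicate 1 and the gene Foxp1. It had 2204 CPM in direct-pathway nuclei, against 623 to 1066 in the other 5 libraries, 2194 CPM in indirect-pathway nuclei, against 810.0 to 1192, and 198 CPM in Sst nuclei, against 37.5 to 86.6. In the other, Meis2 in Lamp5 nuclei of knockout replicate 2 had 153 CPM, against 0 to 21.9 in the other 4 libraries with enough nuclei.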

How the results depend on the processing

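Counts of genes called between gates moved most. DESeq2 called 147 genes between direct and indirect, 377 between medial and caudal and 494 between olfactory and striatal gates. With at least 2 Gad UMIs these were 180, 522 and 1015. With no replicate block they were 30, 75 and 881, and 1685 between striatal and interneuron gates; the block is the mouse, which both gates share. With no low-count filter the medial and caudal gates gave 1349. Leaving out 1 library gave 462 to 803 there (462 without knockout replicate 1), 277 to 388 between direct and indirect and 3854 to 4244 between striatal and interneuron gates; the olfactory comparison, with 2 libraries, could not be run that way. Of 255 values of members between gates under alternatives, 233 kept their direction and call, 20 lost the call, 1 gained it and 1 reversed. The reversed value was Etv1 between medial and caudal gates, which had a log2 difference of -0.0204 without knockout replicate 2 and spanned -0.0204 to 0.55 leaving out 1 library.

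Between genotypes, no low-count filter gave 341 genes in eccentric, 417 in Pvalb, 449 in Sst and 388 in Vip nuclei. Of these 341, 417, 448 and 386 were higher with the knockout, the group that holds the deeper knockout replicate 1. With the filter, Sst nuclei gave 1 by DESeq2 and 0 to 1 leaving out 1 library. No member was called in any of 421 values. Meis2 over all Gad-positive nuclei turned to 0.15 with at least 2 Gad UMIs and to 0.10 without olfactory nuclei (chosen after seeing the data), and spanned -0.42 to 0.51 leaving out 1 library. With at least 2 Gad UMIs the share differences were 5.10 points for striatal types and -5.16 for interneurons. Leaving out 1 library they spanned -12.7 to 9.04 for striatal, -7.45 to 4.68 for interneuron, -17.8 to 13.6 for olfactory and -4.41 to 10.2 for other types. The cause of these moves was not tested. With the low-count filter Sp8 was tested in the olfactory comparison only; in the others low depth and low expression cannot be told apart.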

Other observations

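Meis2 in Vip nuclei had 94.9, 35.1 and 73.3 CPM in the wild-type mice, against 6.0, 14.7 and 14.5 with the knockout, on 24 UMIs in wild type and 9 in knockout. Pbx3 in Sst nuclei had 2.09 ± 3.61 CPM in the wild-type mice, against 16.6 ± 4.53 with the knockout (SD, n = 3 each). These Pbx3 levels rest on 19 UMIs over the 6 libraries, 13 of them from the deeper knockout replicate 1. In both cases the groups do not overlap, the counts were too few for the fit across genes, and the difference was not tested. All other member levels overlapped between genotypes, over all Gad-positive nuclei and in direct-pathway, indirect-pathway, eccentric, Sst, Pvalb and Vip nuclei. The share of all genes without overlap was not counted. With 3 against 3 an exact permutation test cannot go below 0.1, so no genotype effect is read from either case. The shares of these nuclei with a UMI of the gene were at the background level given above.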
